A study of Mus musculus with 24 samples.

Results

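The 6 genes described here are Bok, Socs2, Rgs14, Amigo2, Pcp4 and Map3k15. The last 5 are used as markers of the pyramidal neurons of hippocampal fields CA2 and CA3, and Bok was added because it ranked first by p for early life stress (ELS) in these mice. The set was therefore chosen by measured values, and its ELS values are given as a description without a test. All 6 of the 6 genes passed the filter on low counts, among 16209 of the 46983 genes in the table.

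RNA was sequenced in bulk from 1 mm punches of dorsal and ventral hippocampus of 24 adult female mice on a C57BL/6 background. The 4 groups of 6 were Fkbp5lox/lox control, Fkbp5lox/lox ELS, Fkbp5Nex control and Fkbp5Nex ELS. All mice carried loxP-flanked Fkbp5 alleles. Fkbp5 encodes FKBP51, a co-chaperone of the glucocorticoid receptor. Fkbp5lox/lox littermates lacked Cre and served as wild types, whereas Fkbp5Nex mice carried Cre under the Nex (Neurod6) locus, which deletes Fkbp5 from glutamatergic neurons of the forebrain but leaves it in granule cells of the dentate gyrus. ELS was raising of pups with limited bedding and nesting material soon after birth, and control litters had standard bedding. The deposited values were raw read counts per gene, and levels are given here as CPM, the counts of a gene scaled to a common library total after TMM correction.

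CA3 pyramidal neurons receive mossy fibre input from dentate granule cells and excite each other through recurrent collaterals. CA2 is a narrow field between CA3 and CA1 that is known for social memory and for synapses that resist long-term potentiation. Rgs14, a scaffold that limits signalling through inhibitory G proteins, is known to restrain that plasticity in CA2. Amigo2 is a leucine-rich repeat adhesion molecule, Pcp4 is a small calmodulin-binding protein that granule cells also express, and Map3k15 (ASK3) is a stress-responsive MAP kinase kinase kinase. Socs2 restrains growth hormone signalling through JAK2 and STAT5. Bok is a pore-forming member of the Bcl-2 family that resides on the endoplasmic reticulum and binds inositol trisphosphate receptors.

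Positions were taken from GENCODE vM21 (GRCm38), since a genome build for the counts was not given in the sources used here. Bok (ENSMUSG00000026278) lies on the plus strand at chr1:93685660-93695764. Amigo2 (ENSMUSG00000048218) is a single-exon gene on the minus strand at chr15:97244125-97247287. Socs2 (ENSMUSG00000020027) is at chr10:95385362-95417180 on the minus strand, Rgs14 (ENSMUSG00000052087) at chr13:55369732-55384687 on the plus strand, Pcp4 (ENSMUSG00000090223) at chr16:96467606-96525793 on the plus strand and Map3k15 (ENSMUSG00000031303) at chrX:159988433-160123351 on the plus strand. Bok, Socs2 and Rgs14 share no exon bases with another annotated gene. Pcp4 shares 243 exon bases, 23.7% of its 1026, with an Igsf5 gene model on the same strand that has no row in the count table. Map3k15 shares 603 exon bases, 13.9% of its 4348, with Pdha1 on the opposite strand, which had 2728 to 4146 counts per mouse. Amigo2 shares 58 bases with Pced1b on the opposite strand. Strand use in counting was not given in the sources used here, so values of Pcp4, Map3k15 and, to a small extent, Amigo2 are uncertain.

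RefSeq promoter sequence (GRCm38.p6) was at hand for 3 of the 6 genes. The 250 bases before the RefSeq start site are shown for Bok and Amigo2, the pair with the smallest p for genotype among the 6. For Bok this site lies upstream of the GENCODE start given above. Capitals mark the glucocorticoid response half-site AGAACA, searched on both strands, because FKBP51 acts on the receptor that binds this motif.
Bok, chr1:93685325-93685574, plus strand: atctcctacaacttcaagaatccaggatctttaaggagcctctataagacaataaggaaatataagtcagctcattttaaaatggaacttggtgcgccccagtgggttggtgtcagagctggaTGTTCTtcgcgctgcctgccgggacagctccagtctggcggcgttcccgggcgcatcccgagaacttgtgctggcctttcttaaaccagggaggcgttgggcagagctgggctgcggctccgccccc
Amigo2, chr15:97247288-97247537, minus strand: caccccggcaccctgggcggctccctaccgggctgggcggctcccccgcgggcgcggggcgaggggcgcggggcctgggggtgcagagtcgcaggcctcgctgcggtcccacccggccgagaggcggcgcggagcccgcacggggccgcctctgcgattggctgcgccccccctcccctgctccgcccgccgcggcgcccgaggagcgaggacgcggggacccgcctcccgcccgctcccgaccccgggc
The Bok stretch held 1 half-site and the Amigo2 stretch held 0. Among 32851 promoters of the same length, 16.1% held at least 1 half-site. The full glucocorticoid response element, a palindrome of the half-site with a spacer of any bases, was in neither stretch. The Amigo2 stretch was 84.0% G and C, against 55.2% for Bok.

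Library totals ranged from 18347283 to 26555623 counts per mouse. Fkbp5 had 1078 to 1602 counts in the Fkbp5lox/lox mice and 169 to 582 in the Fkbp5Nex mice, with no overlap. In bulk tissue, fewer cells of a type and less RNA per cell cannot be told apart. Some mice stood apart in region markers. Over 9 other CA3 genes (Grik4, Iyd, Nectin3, Coch, Cdh24, Elavl2, Homer3, St18 and Cpne4), the summed level was lowest in Fkbp5lox/lox control mouse 44 at 362 CPM and in Fkbp5Nex control mouse 12 at 411 CPM, whereas the group medians were between 593 and 654 CPM. Mouse 44 also had the highest sum of 5 CA1 genes, 574 CPM against group medians of 237.5 to 322 CPM. Across all mice, Fibcd1 ran from 10.7 to 434 CPM, and no other gene of that list exceeded 66.8 CPM. The high sum of mouse 44 was therefore mostly Fibcd1 and is not a rise of the CA1 genes as a set. Mouse 12 had the highest sum of 6 astrocyte genes, 7680 CPM against group medians of 3813.5 to 4550 CPM. It also had the highest sum of 5 microglia genes, 321 CPM against group medians of 191 to 233 CPM. Its sum of 5 oligodendrocyte genes, 1404 CPM, was the lowest of its group. The part of these cells in the low values of mouse 12 was not tested. Fkbp5lox/lox ELS mouse 8 had the highest sum of 6 dentate gyrus genes, at 739 CPM. The CA2 list of 8 other genes summed to between 269 and 521 CPM, but its defining member Avpr1b, the vasopressin receptor of CA2 neurons, had only 0 to 19 counts per mouse, was at 0 in 4 mice and was not tested. Most of that sum was Adora1 and Necab2, with medians of 221 and 112.5 CPM over all mice.

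Measured per kilobase of annotated exon, Bok had the highest level of the 6 genes, at 36.8 ± 8.96 CPM per kb (SD, n = 24). Rgs14 followed at 17.3 ± 4.98, Amigo2 at 10.8 ± 3.51, Socs2 at 4.28 ± 0.900, Pcp4 at 0.965 ± 0.376 and Map3k15 at 0.494 ± 0.177 CPM per kb. Amigo2 was above Socs2, and Socs2 above Pcp4, in 24 of 24 mice. Bok exceeded Rgs14 in 23 of 24 mice, Rgs14 exceeded Amigo2 in 21 of 24 and Pcp4 exceeded Map3k15 in 21 of 24, so these 3 neighbouring pairs overlapped in part. The order depends on the exon models, which include rarely used exons. Pcp4, often used to mark CA2, rested on 8 to 50 counts per mouse and Map3k15 on 19 to 72, the fewest counts of the 6 genes.

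**Figure D1:**
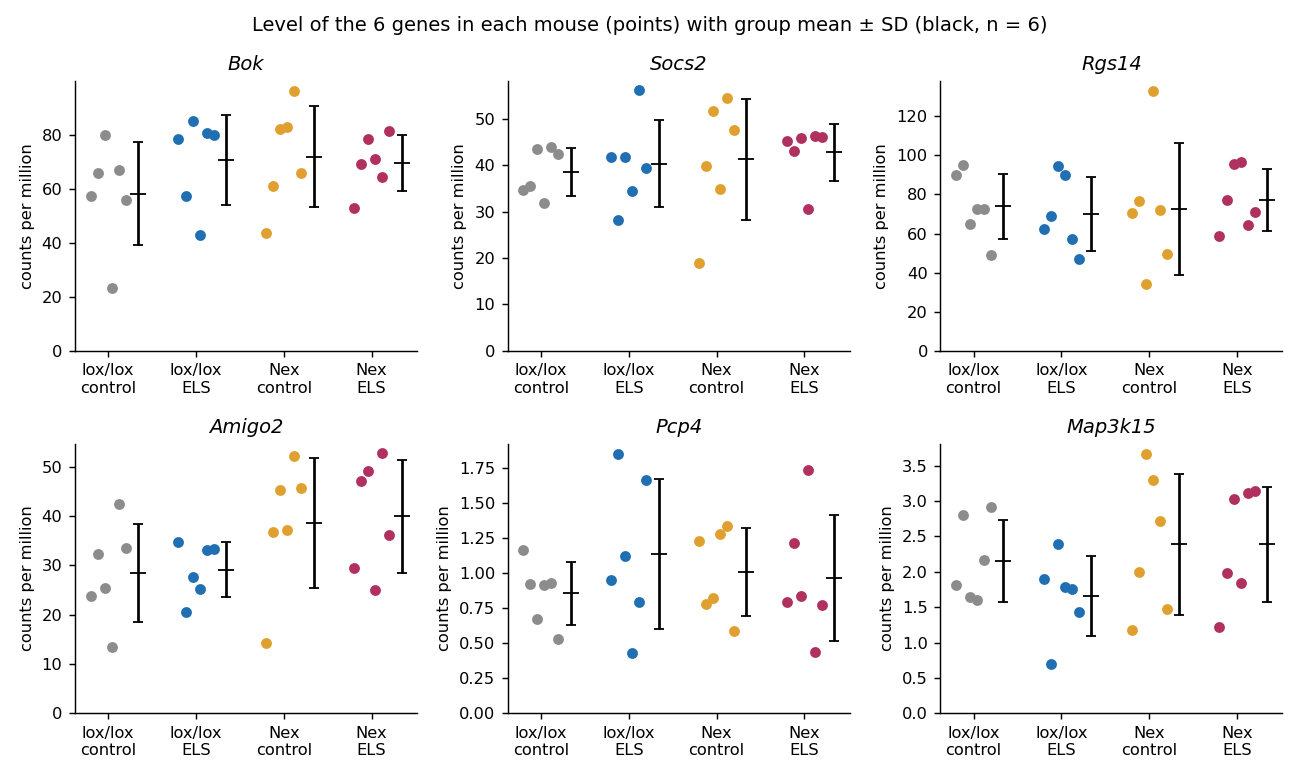
Level of each gene in CPM (vertical axis, from 0) in the 24 mice, by group (horizontal axis); each point is a mouse and the black bar is the group mean ± SD (n = 6). The groups overlap for every gene, and the lowest Bok value is 23.3 CPM in an Fkbp5lox/lox control mouse.

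Bok varied more between mice of a group than between groups. In Fkbp5lox/lox control mice it had a lowest value of 23.3 CPM, a median of 61.5 and a highest value of 80.0. In Fkbp5lox/lox ELS mice these values were 43.0, 79.2 and 85.1 CPM. They were 43.7, 74.0 and 96.3 CPM in Fkbp5Nex control mice and 53.0, 70.1 and 81.3 CPM in Fkbp5Nex ELS mice. All groups overlapped, although 3 of 6 Fkbp5lox/lox ELS mice were above the highest Fkbp5lox/lox control. The low values belonged to mouse 44 (23.3 CPM, Fkbp5lox/lox control), mouse 68 (43.0 CPM, Fkbp5lox/lox ELS) and mouse 12 (43.7 CPM, Fkbp5Nex control), which were also the mice with the lowest CA3 sum in their groups. The group means were 58.2 ± 19.2, 70.8 ± 16.8, 71.9 ± 18.8 and 69.6 ± 10.2 CPM (SD, n = 6), in the same order of groups.

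Amigo2 had higher means in both Fkbp5Nex groups than in both Fkbp5lox/lox groups. Its lowest, median and highest values were 13.4, 28.8 and 42.5 CPM in Fkbp5lox/lox control mice. In Fkbp5lox/lox ELS mice they were 20.5, 30.4 and 34.8 CPM. In Fkbp5Nex control mice they were 14.3, 41.2 and 52.2 CPM, and in Fkbp5Nex ELS mice 24.9, 41.7 and 52.7 CPM. The mean in Fkbp5Nex was 1.35 times that in Fkbp5lox/lox among control mice and 1.37 times among ELS mice, yet the groups overlapped in both. The lowest value of each control group was again that of mouse 44 and mouse 12.

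Socs2 had group means within a narrow range, at 38.6 ± 5.22 CPM in Fkbp5lox/lox control, 40.4 ± 9.42 in Fkbp5lox/lox ELS, 41.3 ± 13.1 in Fkbp5Nex control and 42.9 ± 6.17 in Fkbp5Nex ELS mice (SD, n = 6). Its lowest, median and highest values in these groups were 31.8, 39.0 and 43.9 CPM, then 28.2, 40.6 and 56.4 CPM, then 19.0, 43.8 and 54.6 CPM, and lastly 30.5, 45.6 and 46.4 CPM. The lowest value of all, 19.0 CPM, was that of mouse 12.

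Rgs14 behaved differently from Bok and Amigo2 in the mice that stood apart. Its lowest, median and highest values were 49.3, 72.5 and 94.9 CPM in Fkbp5lox/lox control mice and 46.9, 65.6 and 94.5 CPM in Fkbp5lox/lox ELS mice. In Fkbp5Nex control mice they were 34.3, 71.1 and 133 CPM, the widest range, and in Fkbp5Nex ELS mice 59.0, 74.0 and 96.6 CPM. Mouse 44, lowest of its group for Bok, Socs2 and Amigo2, had 72.7 CPM of Rgs14, close to the median of its group. The extremes were mouse 42 at 34.3 CPM and mouse 52 at 133 CPM, both Fkbp5Nex control mice.

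Counted levels of Pcp4 and Map3k15 were low in every mouse, and both genes share exon bases with another gene, so true levels may differ. Pcp4 group means were 0.855 ± 0.222, 1.14 ± 0.536, 1.01 ± 0.313 and 0.966 ± 0.451 CPM in Fkbp5lox/lox control, Fkbp5lox/lox ELS, Fkbp5Nex control and Fkbp5Nex ELS mice (SD, n = 6). The highest Pcp4 value, 1.85 CPM, was that of mouse 8, which had the highest dentate gyrus sum. Map3k15 group means were 2.16 ± 0.580, 1.66 ± 0.564, 2.39 ± 0.999 and 2.38 ± 0.819 CPM in the same order. Mouse 8 had the lowest Map3k15 value, 0.703 CPM.

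Whether these genes differed between the genotypes was asked with the genotype contrast. This is the mean of the Fkbp5Nex groups minus the mean of the Fkbp5lox/lox groups. Only Fkbp5Nex mice carried Cre, so deletion of Fkbp5 and the Cre allele at Neurod6 cannot be told apart in it. Differences are log2 fold changes from edgeR's quasi-likelihood test with 4 group means and 5 surrogate variables, and a gene was called at a Benjamini-Hochberg adjusted p below 0.02. Of the 6 genes 0 were called, against 0.117% of all genes tested. Neurod6, whose locus carries Cre, was itself called lower in Fkbp5Nex mice, at -0.90 (SE 0.15, edgeR adjusted p 0.0090). Bok was higher by 0.17 (SE 0.05) in Fkbp5Nex mice, with an unadjusted p of 0.00098 and an adjusted p of 0.123 by edgeR. Amigo2 had the largest difference, 0.31 (SE 0.12), with an edgeR adjusted p of 0.306. The difference was 0.21 (SE 0.19) for Pcp4, 0.11 (SE 0.16) for Map3k15, -0.04 (SE 0.05) for Socs2 and -0.03 (SE 0.11) for Rgs14, with edgeR adjusted p from 0.719 to 0.939. Bok and Amigo2 were the 2 of 6 genes with an unadjusted p below 0.05, which 11.5% of all genes tested had. Bok was chosen by its p for ELS in this same fit, which shares its mice and spread with the genotype contrast. Its p for genotype is thus not independent of that choice, and nothing is read from this count.

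Within control mice, the genotype difference of Bok was 0.32 (SE 0.06, edgeR adjusted p 0.0446), and within ELS mice it was 0.03 (SE 0.07, edgeR adjusted p 0.954). The control comparison uses the Fkbp5lox/lox control mice, whose low Bok level also entered the ELS contrast by which Bok was chosen. None of the 6 genes was called in either, against 0.0494% of all genes tested in control mice and 0.0123% in ELS mice. For Amigo2 the difference was alike in both, 0.33 (SE 0.16) in control and 0.29 (SE 0.17) in ELS mice, with edgeR adjusted p of 0.578 and 0.805.

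The size of these differences depended on the fit. With no surrogate variables the genotype difference of Bok was 0.14 with an edgeR adjusted p of 0.881, and with DESeq2's Wald test it was 0.18 with an adjusted p of 0.0391. For Amigo2 the difference was 0.45 with no surrogate variables (edgeR adjusted p 0.697). It was 0.56 with the mean of the CA2 and CA3 lists as the only covariate (edgeR adjusted p 0.0533). In that fit the difference of Bok was 0.29 (edgeR adjusted p 0.212). The list mean was not centred by group, so it can carry group differences of its own. Dentate gyrus markers differed between the genotypes in the opposite direction. All 6 had a negative difference and 3 of 6 were called lower in Fkbp5Nex mice, namely Prox1, the granule cell transcription factor, at -0.49, Dsp at -1.07 and Dgat2 at -0.26. The summed dentate gyrus level ranged from 203 to 739 CPM in Fkbp5lox/lox and from 110 to 495 CPM in Fkbp5Nex mice, and its part in the Amigo2 and Bok differences was not tested. Thalamus markers differed in the same direction as Bok and Amigo2. All 8 tested of 9 had a positive genotype difference with a median of 0.26, and 0 were called. Their summed level ranged from 76.0 to 355 CPM in Fkbp5lox/lox and from 77.2 to 319 CPM in Fkbp5Nex mice, and its part was not tested. All tested markers of astrocytes (6), oligodendrocytes (5), microglia (5) and endothelium (4) also had positive genotype differences, with medians of 0.16, 0.11, 0.07 and 0.14, and 0 were called. Among 6 choroid plexus genes, of which 3 were tested, Ttr was called lower in Fkbp5Nex mice, and their summed level ran from 14.4 to 4565 CPM across mice.

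**Figure D2:**
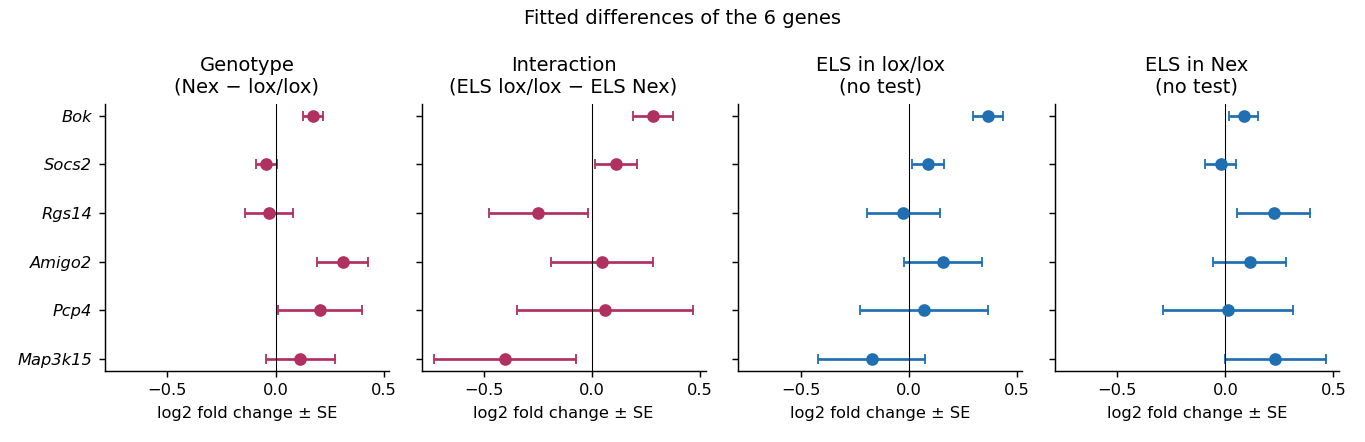
Fitted log2 fold changes (horizontal axis) with standard errors for the 6 genes (vertical axis), for genotype, for the interaction and for ELS in each genotype. Bok is at 0.17 for genotype and at 0.37 for ELS in Fkbp5lox/lox mice, a part of the ELS contrast that chose it, and intervals of Pcp4 and Map3k15 are the widest.

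Whether ELS acted differently in the 2 genotypes was asked with the interaction, the ELS difference in Fkbp5lox/lox minus that in Fkbp5Nex mice. For this interaction 0 of 6 genes were called, against 0.0% of all genes tested. Bok had a value of 0.28 (SE 0.09), an unadjusted p of 0.00638 and an adjusted p of 0.999 by edgeR. It was the 1 of 6 genes with an unadjusted p below 0.05, which 4.02% of all genes tested (651 genes) had. DESeq2's Wald test called 0 genes as well. The interaction is built from the same mice, ELS differences and spread as the contrast by which Bok was chosen, so its p for Bok is not independent of that choice and nothing is read from this count. Map3k15 had an interaction of -0.40 (SE 0.33) and Rgs14 of -0.25 (SE 0.23), opposite in sign to Bok, while Socs2 was at 0.11 (SE 0.10), Pcp4 at 0.06 (SE 0.41) and Amigo2 at 0.05 (SE 0.24). With the CA2 and CA3 lists as covariate the interaction of Bok was 0.16 (unadjusted edgeR p 0.368). The list mean was not centred by group and holds genes that vary with Bok, so nothing is read from this value.

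For ELS itself, no gene of the table was called (0.0% of all genes tested; 577 had an unadjusted edgeR p below 0.05, and DESeq2's Wald test also called 0). By p, Bok stood first, with a log2 fold change of 0.23 (SE 0.05), and Pcdha6, just outside the rule, stood second with -0.53 (SE 0.12). In Fkbp5lox/lox mice the difference of Bok was 0.37 (SE 0.07) and in Fkbp5Nex mice 0.08 (SE 0.07). In Fkbp5lox/lox mice 7 of 8 tested thalamus markers also had a positive ELS difference with a median of 0.32, and 0 were called. Their summed level was 92.6 ± 19.2 CPM in Fkbp5lox/lox control and 192 ± 123 CPM in Fkbp5lox/lox ELS mice (SD, n = 6), with mice 8 and 78 at 355 and 339 CPM, and 135 ± 61.6 and 144 ± 88.7 CPM in Fkbp5Nex control and ELS mice. Their part in the Bok difference was not tested. The other 5 genes had differences for ELS between 0.03 and 0.13. In Fkbp5lox/lox mice, Amigo2 was at 0.16 (SE 0.18), Socs2 at 0.09 (SE 0.07), Pcp4 at 0.07 (SE 0.30), Rgs14 at -0.02 (SE 0.17) and Map3k15 at -0.17 (SE 0.25). In Fkbp5Nex mice, Map3k15 was at 0.23 (SE 0.23), Rgs14 at 0.22 (SE 0.17), Amigo2 at 0.11 (SE 0.17), Pcp4 at 0.01 (SE 0.30) and Socs2 at -0.02 (SE 0.07). The signs of Rgs14, Map3k15 and Socs2 thus differed between the genotypes, each within about 1 SE of 0 in at least 1 of them.

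The first rank of Bok for ELS depended on how variation between mice was modelled. The 5 surrogate variables took up 95.0% of the variance of Bok within groups and 92.4% of that of Socs2, whereas the median over all genes tested was 56.8%. They took 72.4% for Amigo2, 64.4% for Rgs14, 61.7% for Map3k15 and 48.1% for Pcp4. Without surrogate variables, the ELS difference of Bok was 0.12 and its rank 7014. With the mean of the CA2 and CA3 lists as the only covariate the difference was -0.01 and the rank 15516. That mean was not centred by group and includes Cpne4 and Homer3, whose r with Bok was 0.944 and 0.920. It can thus carry part of the ELS contrast, so nothing is read from the loss of the difference in this setting. Leaving out mouse 44 moved the rank to 155 and leaving out mouse 68 moved it to 21, and with each of the other 22 mice left out the rank stayed within the first 10.

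**Figure D3:**
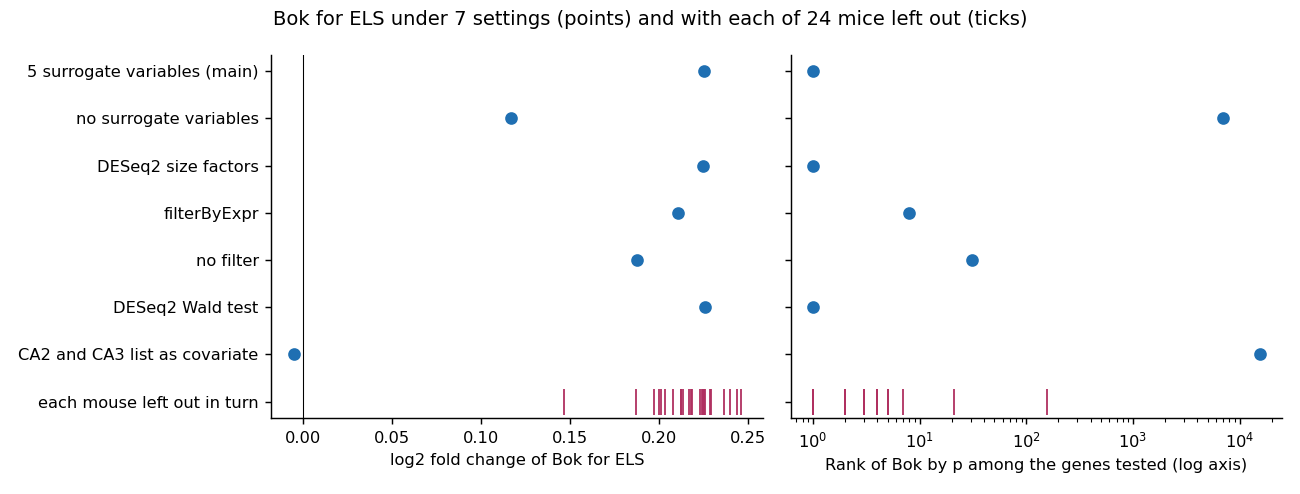
ELS log2 fold change of Bok (left) and its rank by p on a log axis (right) under 7 ways to fit the counts (points) and with each of the 24 mice left out (ticks). The difference runs from -0.01 with the CA2 and CA3 lists as covariate to 0.23 with 5 surrogate variables, and the rank from 1 to 15516.

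How the 6 genes vary between mice of the same group was described by deviations of log2 CPM from the group mean. Bok followed the mean of the 9 other CA3 genes, though its r with single genes ran from 0.156 (Coch) to 0.944 (Cpne4). Its Pearson r with their mean z-score over 24 mice was 0.889 (permutation p = 2e-05, Benjamini-Hochberg adjusted p = 0.000375 over 30 relations) and Spearman's rho was 0.792 (permutation p = 6e-05, adjusted p = 0.0018). Without mice 44 and 12, the farthest from the median of the CA3 score, r was 0.786. Bok was chosen by its p in a fit whose surrogate variables took 95.0% of its variance within groups. Its permutation p with this and the other lists is therefore not independent of that choice. Socs2 had r = 0.729 with the CA3 score (permutation p = 4e-05, adjusted p = 0.000375; rho = 0.79, permutation p = 0.00015, adjusted p = 0.00225) and 0.695 without those mice. Amigo2 had r = 0.755 (permutation p = 4e-05, adjusted p = 0.000375; rho = 0.617, permutation p = 0.00205, adjusted p = 0.0154) and 0.555 without them.

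**Figure D4:**
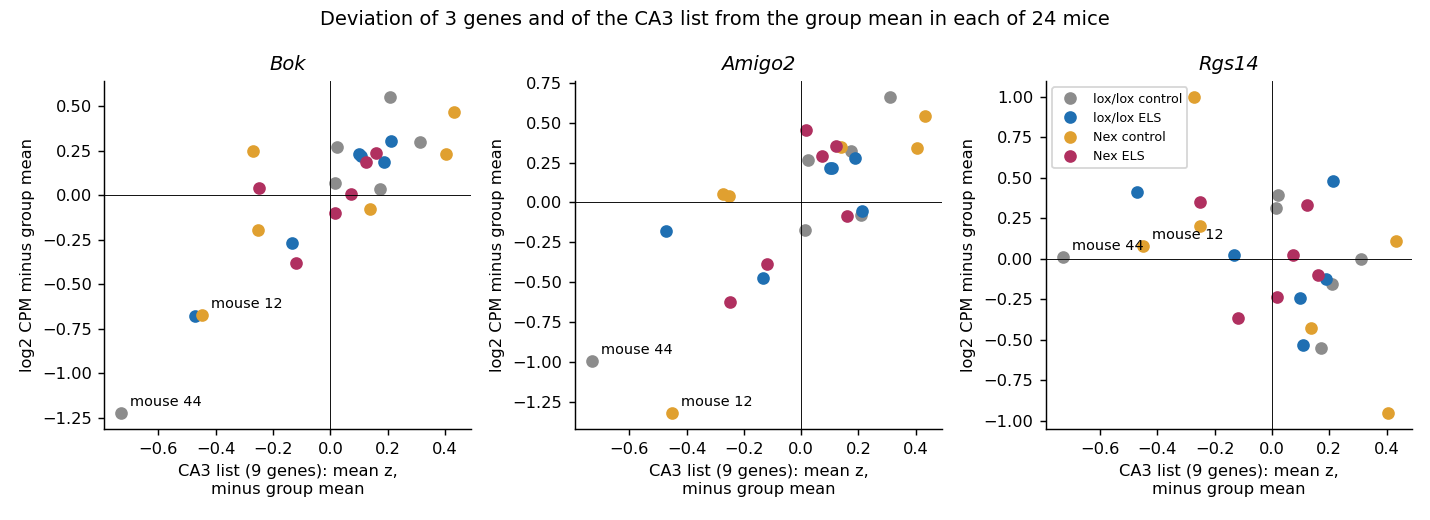
Deviation of Bok, Amigo2 and Rgs14 from their group mean (vertical axis) against the mean deviation of 9 other CA3 genes (horizontal axis) in 24 mice, coloured by group. Both are in log2 CPM, and the horizontal values were not scaled to z-scores, although the axis is labelled so. Bok and Amigo2 rise with the CA3 genes, with mice 44, 68 and 12 at the low end, and Rgs14 does not. With the mean z-score, which is not plotted, r was 0.889 for Bok, 0.755 for Amigo2 and -0.326 for Rgs14.

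Rgs14, the CA2 gene of this set with most counts, had no positive relation with the CA3 score (r = -0.326, permutation p = 0.208, adjusted p = 0.312; rho = -0.303, permutation p = 0.2, adjusted p = 0.313). With the CA1 score its r was 0.446 (permutation p = 0.033, adjusted p = 0.0784; rho = 0.532, permutation p = 0.0188, adjusted p = 0.0565) and 0.654 without mice 8 and 68. With the score of the 7 tested genes of the CA2 list, the r of Rgs14 was 0.237 (permutation p = 0.475, adjusted p = 0.57; rho = 0.378, permutation p = 0.0991, adjusted p = 0.229) and 0.435 without mice 12 and 54. Bok had r = 0.479 with the CA2 score (permutation p = 0.0141, adjusted p = 0.053; rho = 0.565, permutation p = 0.00715, adjusted p = 0.0357), and 0.259 without mice 12 and 54, so the Pearson relation rested in part on those mice. The same held for Socs2 and Amigo2, with r of 0.643 and 0.563 that were 0.14 and 0.116 without those mice (permutation p = 0.0321 and 0.0392, both adjusted p = 0.0784). Their rho with the CA2 score was 0.353 and 0.255 (permutation p = 0.13 and 0.259, adjusted p = 0.244 and 0.324). The genes of the CA2 list went opposite ways. Across them the r of Bok ran from -0.471 with Ntf3 to 0.792 with Adora1. That of Socs2 ran from -0.825 with Ntf3 to 0.819 with Necab2. The CA2 score therefore cannot be read as the amount of CA2 in a punch.

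The dentate gyrus score ran against Socs2 and Amigo2. Socs2 had r = -0.844 with it (permutation p = 5e-05, adjusted p = 0.000375; rho = -0.708, permutation p = 0.00079, adjusted p = 0.0079) and -0.745 without mice 12 and 8. Amigo2 had r = -0.701 (permutation p = 0.00024, adjusted p = 0.00144; rho = -0.526, permutation p = 0.00832, adjusted p = 0.0357) and -0.541 without them. Map3k15 had r = -0.588 (permutation p = 0.00939, adjusted p = 0.0469; rho = -0.533, permutation p = 0.0175, adjusted p = 0.0565) and -0.315 without them. Pcp4, which granule cells also express, went the other way, with r = 0.549 (permutation p = 0.0123, adjusted p = 0.0528; rho = 0.607, permutation p = 0.00484, adjusted p = 0.029) and 0.469 without them. The r of Pcp4 with the CA2 score was -0.06 and with the CA3 score -0.01 (permutation p = 0.799 and 0.96, adjusted p = 0.856 and 0.96), with rho of -0.10 and -0.13 (permutation p = 0.671 and 0.572, adjusted p = 0.672 and 0.613). With the thalamus score, Bok had r = 0.415 (permutation p = 0.0245, adjusted p = 0.0784; rho = 0.522, permutation p = 0.0102, adjusted p = 0.0381) and 0.511 without mice 66 and 8. For the other 5 genes r with this score lay between -0.247 and 0.35 and rho between -0.216 and 0.305, with adjusted p of 0.266 or more for r and 0.313 or more for rho by permutation. Punches hold several fields at once, so the scores of the lists share the library and the share of each field in it.

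Between the 6 genes, the highest correlations were Socs2 with Amigo2 (r = 0.817), Bok with Amigo2 (r = 0.699), Amigo2 with Map3k15 (r = 0.613) and Bok with Socs2 (r = 0.572), over 24 mice. Rgs14 and Pcp4 stood apart from these 4. The r of Rgs14 was -0.02 with Bok, -0.21 with Amigo2 and -0.40 with Socs2, and that of Pcp4 was -0.41 with Socs2, -0.31 with Map3k15 and 0.28 with Rgs14. As counted in these punches, the 5 CA2 and CA3 markers therefore did not vary together as 1 group. The r of Pcp4 and Map3k15 is limited by their few counts.

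**Figure D5:**
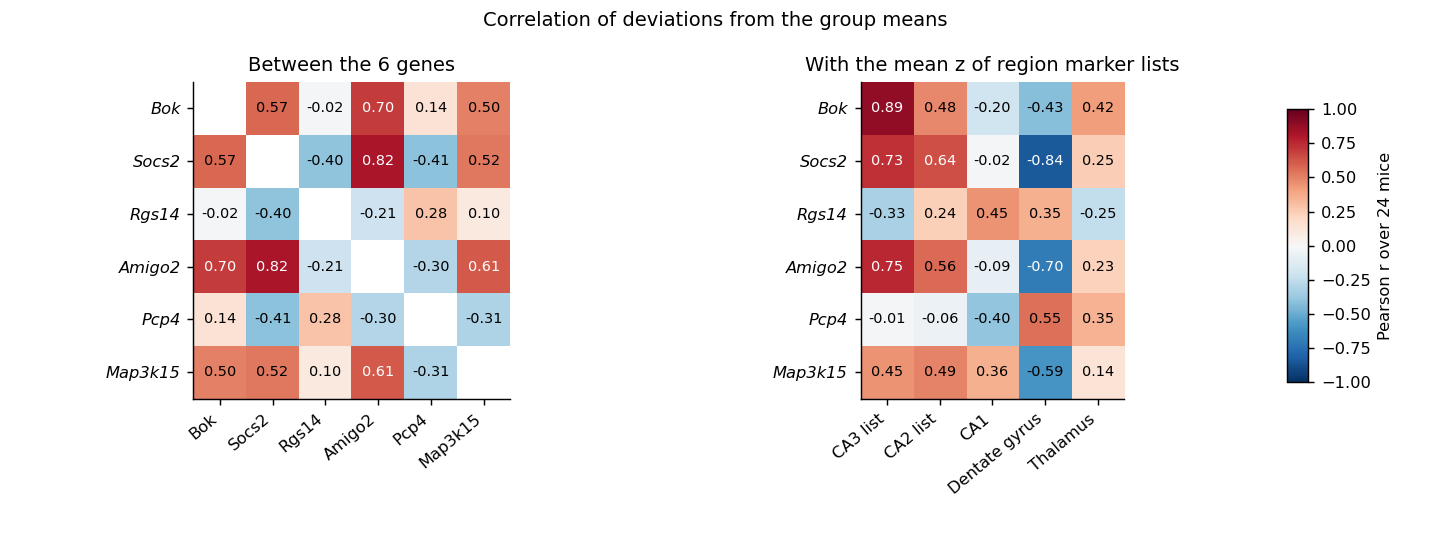
Pearson r of deviations from the group means over 24 mice, between the 6 genes (left) and with the mean z-score of 5 region marker lists (right), on a colour scale from -1 to 1. Bok, Socs2, Amigo2 and Map3k15 have positive values among themselves and with the CA3 list, whereas Rgs14 and Pcp4 are at -0.33 and -0.01 with that list.

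The genes most like Bok over the 24 mice were Chgb (r = 0.967), which encodes chromogranin B of dense-core vesicles, the copine gene Cpne4 (r = 0.944), Epdr1 (r = 0.929), the neuronal calcium sensor gene Hpca (r = 0.926) and the postsynaptic scaffold gene Homer3 (r = 0.920). Cpne4 and Homer3 are members of the CA3 list. Homer3 stood 5th by p for ELS, with a log2 fold change of 0.29 (SE 0.08). Most like Socs2 were Hspa4, a chaperone gene (r = 0.950), and Sulf2, an extracellular sulfatase gene (r = 0.944). Most like Amigo2 were the Wnt pathway inhibitor Nkd2 (r = 0.894) and the spermine synthase gene Sms (r = 0.892). For Rgs14 they were the acid-sensing channel gene Asic2 (r = 0.851) and Arpc2 of the actin-nucleating Arp2/3 complex (r = 0.797). For the low genes they were Kcnmb1 (r = 0.822) and Ptp4a2 (r = 0.808) with Map3k15, and Rps27 (r = 0.783) and Card9 (r = 0.781) with Pcp4.

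The other genes of CA2 and CA3 were compared in the same fits. For genotype 0 of 7 tested CA2 genes were called, with a median log2 fold change of -0.05 against 0.00 over all genes. The neurotrophin gene Ntf3 was lowest at -0.33 and Stard5 next at -0.15, and Necab2 was highest at 0.09 and Adora1, the adenosine A1 receptor gene, next at 0.02. For genotype 0 of 9 CA3 genes were called, with a median of 0.05. Iyd was lowest at -0.64 (SE 0.14), with an edgeR adjusted p of 0.0463. The mean level of Iyd was 4.29 and 5.53 CPM in Fkbp5lox/lox control and ELS mice and 3.38 and 2.40 CPM in Fkbp5Nex control and ELS mice. Cpne4 followed at -0.03, and Coch and Cdh24 were highest at 0.16 and 0.12. For the interaction 0 of 7 CA2 and 0 of 9 CA3 genes were called. For ELS, 8 of 9 CA3 genes had a positive difference with a median of 0.07, and none was called. Since most of these genes vary with Bok between mice, their signs are not independent of the choice of Bok.

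Genes that work with the 6 were also listed. In the Bcl-2 family and the partners of Bok, 18 of 19 genes were tested and 0 were called for genotype, interaction or ELS. For genotype 10 had a positive and 8 a negative difference, with a median of 0.02. In the SOCS family and growth hormone signalling, 0 of 13 genes were called in these 3 contrasts, with a median for genotype of 0.00. The same count of 0 was found for 10 G protein and Ras partners of Rgs14, 4 genes related to Amigo2, 8 calmodulin genes and partners of Pcp4 and 11 genes of the kinase cascade of Map3k15.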

How the data were processed

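The deposited table held the authors' raw counts of reads for each gene in 24 mice, whose column names carry the mouse numbers given in the labels. Per the submitters' processing notes and the methods of the study, reads were aligned with HISAT2 2.0.5 and counted with featureCounts 1.5.0-p3. Build, annotation and strand setting are not given in the sources used here. Replicates were separate mice, and no sequencing batch is labelled. The litter of each mouse is not labelled either, although litters were assigned whole to ELS or control and the genotypes were littermates. Litter could therefore not enter the fits, and each SE and p treats the mice as independent.

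Tested were the 16209 genes that reached 10 counts in all mice of 1 group or more, in R 4.3.3 with edgeR 4.0.16 (TMM, quasi-likelihood test, FDR 0.02) and 5 surrogate variables from svaseq (sva 3.50.0). Surrogates were estimated anew for other filters and for each mouse left out. The study used DESeq2, and version 1.42.0 of it was run here as an alternative. On simulated data, 94 of 100 genes with a log2 change of 1 were recovered for genotype and 67 for the interaction, with no surrogate needed. Correlations used log2 CPM with a prior count of 1, as deviations from group means, with 100000 permutations within groups for the 30 relations with marker lists. Python 3.11.15 was used.

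The 6 genes, the gene lists and the tests were chosen with earlier results of these data known. Named were the 6 genes, Fkbp5, Neurod6, the genes most like each (5 for Bok, 2 for each other), called genes of the lists, and the 2 lowest and 2 highest genes for genotype in the CA2 and CA3 lists. Pcdha6, Avpr1b, Fibcd1, Pdha1, Igsf5 and Pced1b fall outside this rule.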

Additional observations from a re-analysis of the deposited data

Results flagged for a closer look

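Each of the 6 genes was checked in each of the 4 groups of 6 mice for a highest or lowest mouse that lay far from the others, by Dixon's ratio. Of these 24 checks 1 passed Dixon's critical value for 6 samples, and chance passes about 1 in 20. Socs2 in Fkbp5Nex ELS mouse 60 was at 30.5 CPM, whereas the other mice of the group lay between 43.1 and 46.4 CPM, a ratio of 0.789. The same mouse had the lowest Amigo2 value (24.9 CPM) and the highest summed dentate gyrus level (392 CPM, group median 171 CPM) of its group, and the part of the latter was not tested.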

How the results depend on the processing

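The number of genes called for genotype was 19. It was 3 with no surrogate variables, 7 with the CA2 and CA3 lists as covariate, 50 at an FDR of 0.05 and 70 with DESeq2's Wald test. It ranged from 2 to 32 with each mouse left out, and fell to 11 without Fkbp5lox/lox control mouse 28, 9 without 30, 8 without 44 and 6 without 74, to 2 without Fkbp5Nex control mouse 12 or 52 and to 11 without Fkbp5Nex ELS mouse 38, and was 32 without Fkbp5Nex control mouse 54. None of the 6 genes was called for genotype at an FDR of 0.02 in any of these settings. At 0.05, 1 of them (Bok) was called with the Wald test, a setting added after the data were seen. Its edgeR adjusted p ranged from 0.0345 to 0.816 with each mouse left out. The number called for ELS was 0, but 1 with no filter, and 0 to 1 with each mouse left out (1 without Fkbp5lox/lox ELS mouse 68). For the interaction it was 0 throughout.

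Signs changed for genes whose differences were near 0. For genotype, with no surrogate variables and with the CA2 and CA3 lists as covariate, the difference was 0.0915 and 0.147 for Socs2, 0.0581 and 0.0145 for Rgs14 and -0.0121 and -0.0206 for Pcp4. For the interaction it was -0.0211 and -0.215 for Amigo2 in these settings, -0.168 for Socs2 with the covariate and -0.00725 for Pcp4 with no filter. With each mouse left out, the genotype difference ranged from -0.119 to 0.0187 for Socs2 and from -0.159 to 0.0417 for Rgs14, and the interaction from -0.0531 to 0.173 for Amigo2 and from -0.247 to 0.269 for Pcp4. The cause was not tested. No mouse lay beyond 2.5 SD on the first principal component (largest 2.42), so leaving out such mice gave no value. Few counts limit Pcp4 and Map3k15 most, and whether the exon bases they share with other genes lowered or raised these counts was not tested.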
